A study of Mus musculus with 12 samples.

Results

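Genes of the proximal tubule were followed in sorted kidney cells and in cultured macrophages on 12 one-colour Agilent mouse expression arrays, 3 in each of 4 groups. The set holds 41 of the 34751 genes on the arrays, chosen by gene name as transporters, receptors and enzymes of this segment, and it was read on 53 of 55681 probes. The first group was made up of renal cells from op/op mice, homozygotes of the strain B6C3Fe a/a-Csf1op/J, and the second of renal cells from wild-type (WT) mice of that strain. Both had received 80 mg/kg glyoxylate for 6 days, which leads to deposits of calcium oxalate in mouse kidney, and their CD11b+/CD11c+ cells were collected with autoMACS magnetic columns. The op mutation inactivates Csf1, which encodes the growth factor M-CSF on which most macrophages depend, in all cells of the animal. The other two groups were bone marrow derived macrophages treated with LPS and GM-CSF (M1) or with IL-4 and M-CSF (M2). The labels give the same strain name for the marrow but no genotype, and no age or sex for any animal. Nor do they name the animal or culture behind each replicate, so that the spread entering the p-values may be technical. Each level below is the log2 of the background-subtracted signal minus the 75th percentile of its array, and a probe counts as measured where the scanner software called it well above background.

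The proximal tubule takes back most of what the glomerulus filters. Sodium-coupled carriers in its apical brush border import glucose, phosphate, amino acids and organic acids, megalin and cubilin take up filtered protein, and basolateral carriers bring organic ions from the blood for secretion. Its cells also make glucose and creatine precursors and burn fatty acids, and transcription factors of the HNF families keep many of these genes on. CD11b and CD11c are proteins of myeloid cells and not of tubule cells, so most members are not typical genes of the cells for which the kidneys were sorted. Anpep, Mme, Slc7a7, Fbp1 and Gatm are also known from leukocytes.

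The members' promoters were searched for the letters of motifs bound by the HNF families, since these stretches show a feature that the choice by name did not use. RefSeq promoters (GRCm38.p6, 250 bases before to 50 after the start) were found for 38 of the 41 members, and not for Slc13a1, Slc5a12 and Slc5a2. The HNF1 motif GTTAAT stood on either strand in promoters of 10 of the 38 genes (26.3%), against 8.24% of 27025 genes, and counted by promoter in 18.9% of 53, against 7.1% of 32851. The HNF4 core CAAAGTC, which shares no overlap with the HNF1 motif, stood in promoters of 5 members (13.2%), against 5% of all genes, and in 9.43% of member promoters, against 4.44% of all. Of 36 other proximal tubule genes that are not members, 11.1% held the HNF1 motif and 8.33% the HNF4 core. Counted by promoter, the share was 8.51% for each motif. These matches describe letters and not bound sites. Stretches of 100 bases are printed for 6 members that the results below return to, 5′ to 3′ on the gene's strand, which is the plus strand of the build for each, with HNF1 motifs or HNF4 cores in capitals. The stretches lie at chr13:55399519-55399618 for Slc34a1, chr2:163547034-163547133 for Hnf4a, chr19:8617896-8617995 for Slc22a6, chr19:8593061-8593160 for Slc22a8, chr10:75573260-75573359 for Ggt1 and chr17:85028247-85028346 for Slc3a1.
Slc34a1: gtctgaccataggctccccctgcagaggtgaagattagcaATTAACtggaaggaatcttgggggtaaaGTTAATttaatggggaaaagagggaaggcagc
Hnf4a: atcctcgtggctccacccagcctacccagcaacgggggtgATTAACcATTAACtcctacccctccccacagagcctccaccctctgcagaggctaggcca
Slc22a6: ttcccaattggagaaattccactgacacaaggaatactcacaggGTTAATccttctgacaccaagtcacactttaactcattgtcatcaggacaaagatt
Slc22a8: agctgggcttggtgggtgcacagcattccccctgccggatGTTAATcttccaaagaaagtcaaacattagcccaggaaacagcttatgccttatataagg
Ggt1: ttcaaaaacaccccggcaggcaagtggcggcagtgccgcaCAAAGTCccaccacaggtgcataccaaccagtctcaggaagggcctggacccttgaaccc
Slc3a1: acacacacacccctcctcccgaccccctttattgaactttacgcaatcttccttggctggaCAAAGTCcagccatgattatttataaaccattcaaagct
Slc34a1 and Hnf4a each carried a pair of HNF1 motifs in these stretches, Slc22a6 and Slc22a8 carried 1, and Ggt1 and Slc3a1 carried the HNF4 core.

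One WT array lay nearer to the op/op arrays than the other WT arrays did. Over the 20493 genes well above background on all arrays, WT replicate 4 correlated at 0.936 to 0.969 with the op/op arrays. For WT replicates 1 and 2 this was 0.839 to 0.929. WT replicate 4 correlated at 0.971 with WT replicate 2 and at 0.937 with WT replicate 1, and WT replicates 1 and 2 at 0.960 with each other. WT replicate 1 was alone on its slide, while the other 5 renal arrays shared a slide. The marrow arrays all lay on a further slide, so slide cannot be told apart from tissue between renal and marrow cells. Both WT and M1 arrays lay in the upper row of their slides and op/op and M2 arrays in the lower row, so that row cannot be told apart from genotype or polarization. Probes well above background made up 63.1% to 68.8% on op/op arrays, against 76.3% to 79.5% on WT arrays, and 72.9% to 75.4% on M1 arrays, against 64.8% to 65.4% on M2 arrays, which leaves a higher detection limit in op/op and M2. Results are given with all arrays, and without WT replicate 4 or replicate 1 where this changes a call.

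The sorted renal cells gave signal above background for most of the tubule genes. Of the 41 members, 30 were well above background on all 3 op/op arrays, against 39 on all 3 WT arrays, and 23 were so on all 3 M1 arrays, against 21 on all 3 M2 arrays. By array, 73.2% to 87.8% of members were measured in op/op, where 63.1% to 68.8% of all probes were. In WT cells 95.1% to 97.6% of members were measured, where 76.3% to 79.5% of all probes were. Each member was read on its brightest probe, which favours the members, and op/op arrays measured fewer probes of all kinds. In op/op cells 5 members were measured on no array (Slc5a1, Slc13a1, Slc6a19, Slc6a20b and Slc22a8), against 1 in WT cells (Slc6a19). Slc5a1, the apical glucose carrier of the late segment, was measured on 2 of 3 WT arrays and on none of the other 9. Slc6a19, the main neutral amino acid carrier of the brush border, was measured on 1 M2 array and on no renal array, so neither was tested between groups.

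**Figure D1:**
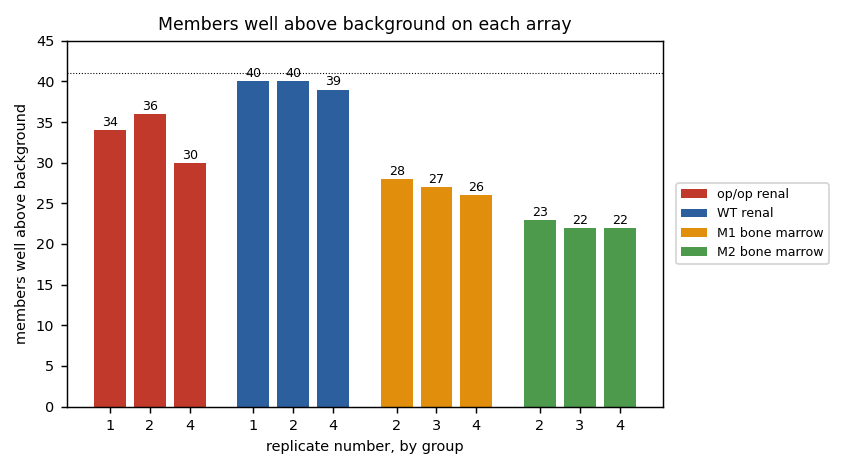
Number of the 41 members called well above background on each of the 12 arrays (bars, from 0; dotted line at 41), by group and replicate number. The op/op arrays measured 34, 36 and 30 members and the WT arrays 40, 40 and 39, while the M1 arrays measured 26 to 28 and the M2 arrays 22 or 23. Of all probes, 63.1% to 68.8% were measured on op/op, 76.3% to 79.5% on WT, 72.9% to 75.4% on M1 and 64.8% to 65.4% on M2 arrays.

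Levels of 34 of the 39 members tested were higher in renal cells than in bone marrow macrophages (limma over all 12 arrays, adjusted p under 0.05), 4 were lower and Gatm was not called. Over all 28238 genes tested, 82.4% were called, 48.7% higher and 33.7% lower. The median difference of the members, as the mean of both renal groups minus the mean of both marrow groups, was 2.76 on the log2 scale, against 0.37 for all genes tested. In 29 members all 6 renal arrays lay above all 6 marrow arrays, as in 27.1% of all genes tested, and in 2 all renal arrays lay under them, as in 19.8% of all genes. Cyp4b1, a cytochrome P450, was at least 113-fold higher in renal cells, with no marrow array above background, and Ggt1, the brush border gamma-glutamyl transferase, was at least 87.8-fold higher. Kap, the androgen-regulated protein of mouse proximal tubule, was 374-fold higher (8.55 ± 0.39, SE, limma adjusted p = 1.42e-08), though 1 M2 array did not measure it. Slc34a1, the apical phosphate carrier NaPi-IIa, was 144-fold higher (7.17 ± 0.22, limma adjusted p = 1.43e-09). With slide as a random block, the same count of 34 members was higher, and Slc3a1 was no longer called lower (-1.09, limma adjusted p = 0.217). No slide held both renal and marrow arrays, so this block cannot separate slide from tissue.

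The members that were lower in renal cells were Slc7a8, Slc7a7, Anpep and Slc3a1, so that their signal in the sort cannot be read as tubule RNA alone. Slc7a8, a basolateral carrier of neutral amino acids, had 1.06, 1.60 and 1.53 on the op/op and 2.24, 2.46 and 1.98 on the WT arrays, against 5.37, 5.22 and 5.02 in M1 and 5.11, 4.93 and 4.92 in M2 cells. Renal cells were 9.73-fold lower (-3.28 ± 0.14, limma adjusted p = 8.58e-09). Anpep, the aminopeptidase N of brush border and myeloid cells, had -2.83, -2.72 and -3.14 on the op/op and -2.07, -1.47 and -2.61 on the WT arrays, against 0.07, 0.01 and 0.32 in M1 and 1.71, 1.61 and 1.71 in M2 cells. For Slc7a8 and Anpep, all renal arrays lay under all marrow arrays. Slc7a7, which exports cationic amino acids across the basolateral side, ranged from -0.21 to 1.85 on renal arrays, against 1.67 to 3.65 on marrow arrays, and overlapped. Slc3a1, the heavy chain of the cystine carrier, was within -5.25 to -2.86 on renal arrays, against -3.30 to -2.31 on marrow arrays, which also overlapped.

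**Figure D2:**
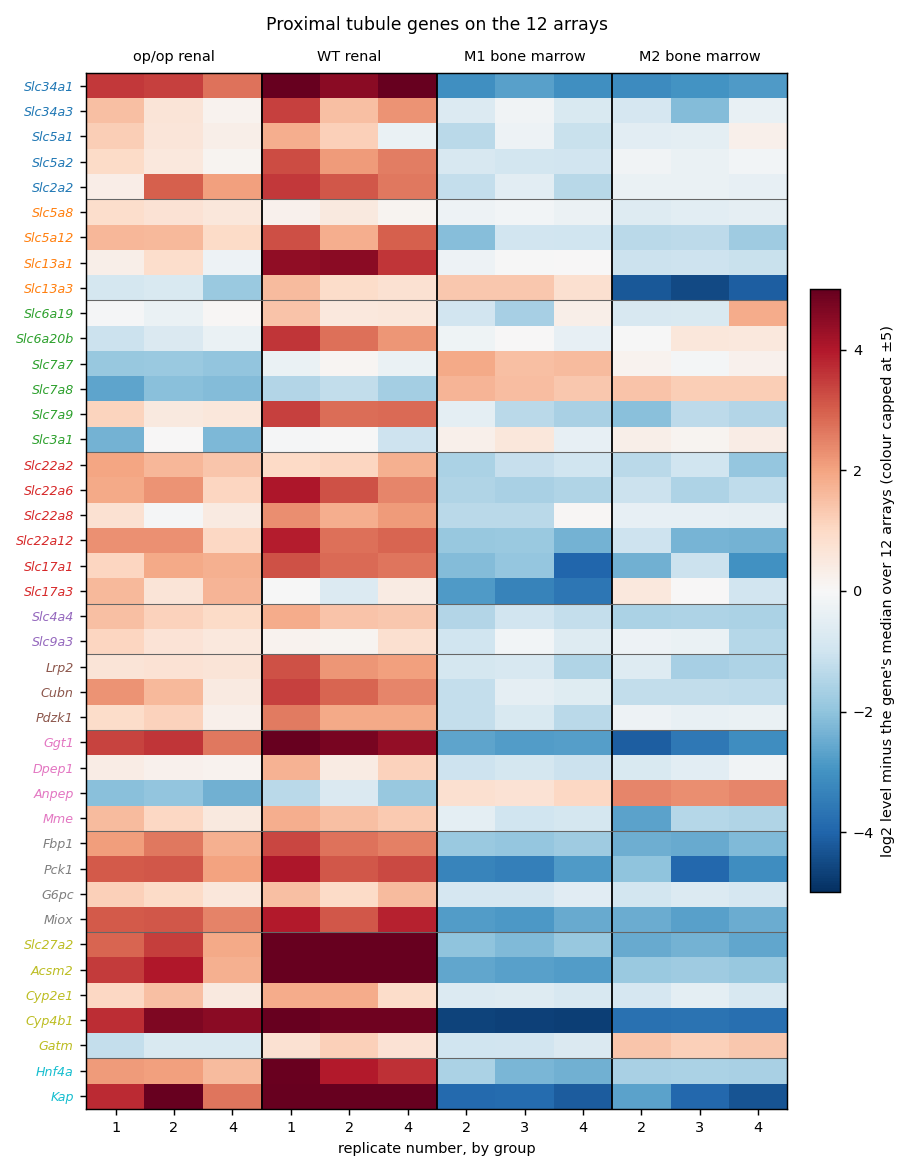
Level of each of the 41 members (rows, grouped by role in the order of the text, name colours marking the role) on each array (columns, by group and replicate number), as log2 level minus the gene's own median over the 12 arrays, with colour capped at 5 either way. Most rows are red in the 6 renal columns and blue in the 6 marrow columns. Rows that break this pattern include Slc7a7, Slc7a8, Anpep, Slc13a3, Slc3a1, Gatm and Slc6a20b.

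Most of the tubule genes gave less signal in renal cells of op/op than of WT mice. Of the 39 members tested, 28 (71.8%) fell and 2 (5.13%) rose at a limma adjusted p under 0.05, and 9 were not called. Over all 27048 genes tested, 60.2% were called, 27.8% lower and 32.5% higher. The 2 that rose were Slc5a8 and Slc17a3, and Slc17a3 fell on its other probe. All 39 were well above background on every WT array, but 30 on every op/op array. The rest entered only through WT cells: Slc34a3, Slc2a2, Slc13a1, Slc6a20b, Slc7a9, Slc3a1, Slc22a8, Cubn and Anpep. All of these but Slc3a1 were called lower, a direction that the filter favours. The members' median difference was -1.33, against 0.19 for all genes, to which the members' changes can be set. In 27 members all op/op arrays lay under all WT arrays, as in 25.4% of all genes tested, in 2 they lay above, as in 33.5%, and in 12 they overlapped. Because these are bulk samples, fewer tubule cells or fragments and less RNA in each cannot be told apart. Without the 5 members also known from leukocytes, 24 of 34 were lower and 2 higher, with a median of -1.34. The genes left were not free of macrophage signal. They included Slc7a8, at means of 5.20 in M1 and 4.99 in M2 cells, and Slc13a3, at 3.05 in M1 cells, both called lower. Of the 34 members that were higher in renal cells than in marrow macrophages, 24 were lower in op/op, 2 higher and 8 not called.

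Leaving out WT replicate 4 did not remove this difference, while leaving out WT replicate 1 lowered the number of calls. Without WT replicate 4, 27 members were lower and 1 higher, with a median of -1.48, while 8055 of all 27048 genes tested were lower. Within the shared slide, which leaves out WT replicate 1, 19 were lower and 1 higher, with a median of -1.07, while 6471 of all genes were lower. The renal arrays varied more than the marrow arrays (median residual SD 0.36, against 0.156), and a fit of the renal groups alone called 24 members, 23 of them lower, and 4748 of all genes lower. The SEs below, which pool all 4 groups, therefore tend to be small for renal cells. WT replicate 1 was the highest WT array for 29 of the 41 members, and op/op replicate 4 was the lowest op/op array for 29.

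**Figure D3:**
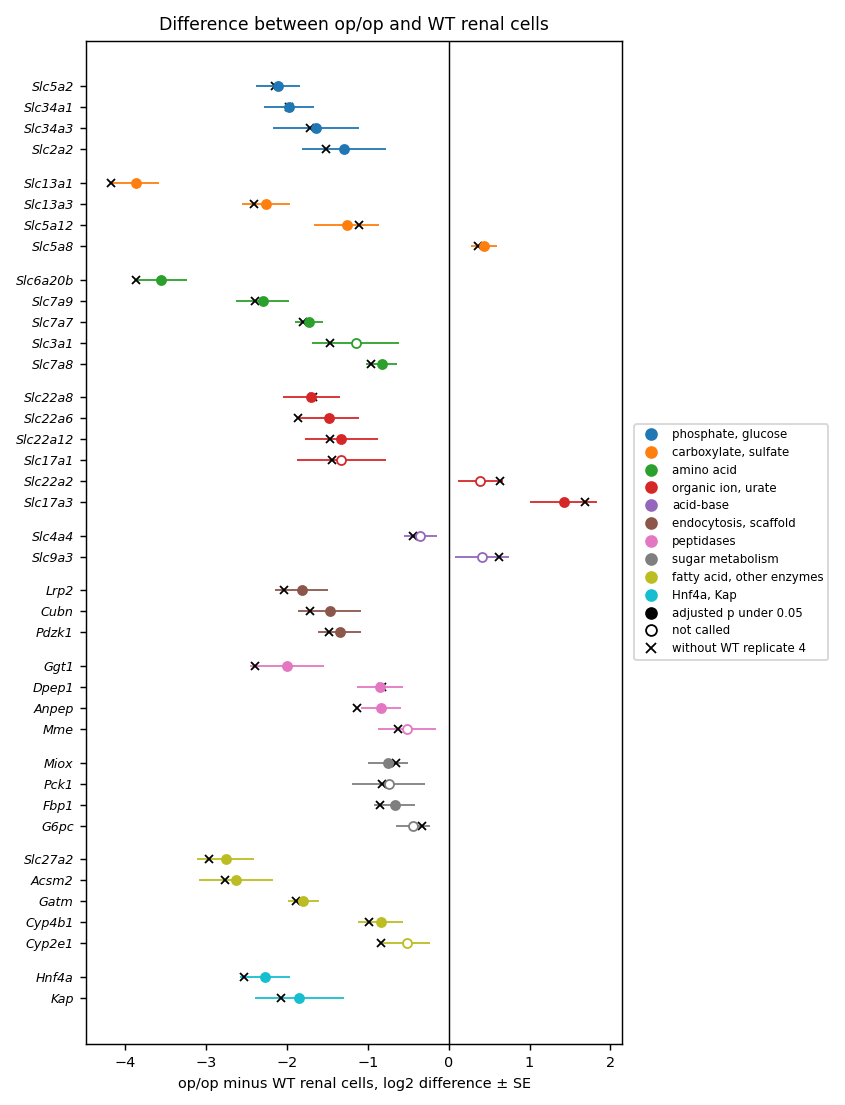
Log2 difference between op/op and WT renal cells (x axis, bars are the SE of the fit) for the 39 members tested, grouped by role. Filled points are called, open points are not, and crosses show the difference without WT replicate 4. Most points lie left of 0. Slc13a1, Slc6a20b and Slc22a8 were under background on every op/op array, so their plotted differences have no order against the others.

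The 4 phosphate and glucose carriers that could be tested were called lower in op/op cells, Slc2a2 only narrowly. Slc34a1 had 3.70, 3.59 and 2.88 on the op/op arrays, against 6.05, 4.68 and 5.37 on the WT arrays, with a probe at chr13:55515201-55515259 (mm9, plus strand). It was 3.93-fold lower in op/op (-1.97 ± 0.31, limma adjusted p = 0.000997), its groups did not overlap, and marrow arrays lay between -2.96 and -2.53. Slc5a2, the low-affinity apical glucose carrier SGLT2 of the early segment, had 0.93, 0.51 and 0.14 in op/op, against 3.26, 2.10 and 2.55 in WT cells. It was 4.32-fold lower (-2.11 ± 0.27, limma adjusted p = 0.000487). Both kept the call without each array in turn. Slc34a3, the apical phosphate carrier NaPi-IIc, had -2.28, -3.14 and -3.60 in op/op, against -0.34, -2.25 and -1.51 in WT cells (-1.64 ± 0.53, limma adjusted p = 0.0204), measured on 2 op/op arrays. Its lowest WT array lay next to the highest op/op array, and the call was lost without WT replicate 1 (-1.13, limma adjusted p = 0.086), op/op replicate 2 (-1.57, limma adjusted p = 0.0502) or op/op replicate 4 (-1.35, limma adjusted p = 0.0722). Slc2a2, the basolateral glucose carrier GLUT2, was the weakest of the 4 (-1.29 ± 0.52, limma adjusted p = 0.0486), with 1 op/op array above background and overlapping groups. Its call was lost without WT replicate 1 (-1.07), WT replicate 2 (-1.29), op/op replicate 1 (-0.57) or op/op replicate 4 (-1.42), and the difference was -1.90 without op/op replicate 2. In all, 13 of 18 other settings did not call Slc2a2, among them a fit of the renal groups alone (limma adjusted p = 0.094) and normexp background correction (-0.05, limma adjusted p = 0.828).

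Among the carriers of carboxylates and sulfate, 3 of 4 were lower and Slc5a8 was higher. Slc13a1, the apical sulfate carrier NaS1, had -4.59, -4.02 and -5.13 in op/op, under background on each array, against -0.44, -0.36 and -1.32 in WT cells (probe at chr6:24038359-24038418, mm9, minus strand). It was at least 5.92-fold lower in op/op (limma adjusted p = 5.7e-05), and it was under background on all marrow arrays as well. Slc13a3, the basolateral dicarboxylate carrier NaDC3, had 1.02, 1.10 and 0.04 in op/op, against 3.45, 2.81 and 2.66 in WT cells, and was 4.78-fold lower (-2.26 ± 0.30, limma adjusted p = 0.00055). It was also high in M1 macrophages (3.23, 3.22 and 2.70), so the renal arrays overlapped with the marrow arrays. Slc5a12, an apical lactate carrier of the early segment, had -0.78, -0.80 and -1.50 in op/op, against 0.78, -0.61 and 0.54 in WT cells (-1.26 ± 0.40, limma adjusted p = 0.018), with WT replicate 2 next to the op/op arrays. That call was lost without WT replicate 1 (-0.99), WT replicate 4 (-1.11, limma adjusted p = 0.0522) or op/op replicate 4 (-1.02). Slc5a8, a monocarboxylate carrier of the late segment, had -1.77, -1.96 and -2.09 in op/op, against -2.45, -2.16 and -2.53 in WT cells, without overlap. Its rise was small (0.44 ± 0.16, limma adjusted p = 0.0317) and lost without WT replicate 1 (0.40), WT replicate 4 (0.36), op/op replicate 1 (0.35) or op/op replicate 2 (0.45), as in a fit of the renal groups alone (limma adjusted p = 0.16).

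Amino acid carriers fell in 4 of 5 cases, and their calls withstood leaving out any single array. Slc6a20b, a carrier of the proline and imino acid family, had -4.46, -4.12 and -3.75 in op/op, all under background, against 0.18, -0.67 and -1.18 in WT cells, and was at least 6.58-fold lower (limma adjusted p = 0.000156). The marrow arrays, at -3.81 to -2.85, were all above background. Slc7a9, the light chain of the apical cystine carrier, had -2.37, -3.00 and -2.90 in op/op, against -0.05, -0.66 and -0.65 in WT cells (-2.30 ± 0.33, limma adjusted p = 0.000639), and was measured on 2 op/op arrays. Its heavy chain Slc3a1 had -5.25, -2.86 and -5.15 in op/op, against -2.96, -2.93 and -3.92 in WT cells. Only op/op replicate 2 measured Slc3a1, at the level of the highest WT arrays, and the difference was not called (-1.15 ± 0.54, limma adjusted p = 0.0839) but was without that array (-1.93, limma adjusted p = 0.00212). Slc7a7 had -0.15, -0.08 and -0.21 in op/op, against 1.44, 1.85 and 1.43 in WT cells, and was 3.31-fold lower (-1.73 ± 0.17, limma adjusted p = 0.000239). Slc7a8, with the values given above, was 1.78-fold lower (-0.83 ± 0.19, limma adjusted p = 0.00462). The op/op arrays lay under all WT arrays for both, and both were higher still in the marrow macrophages.

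**Figure D4:**
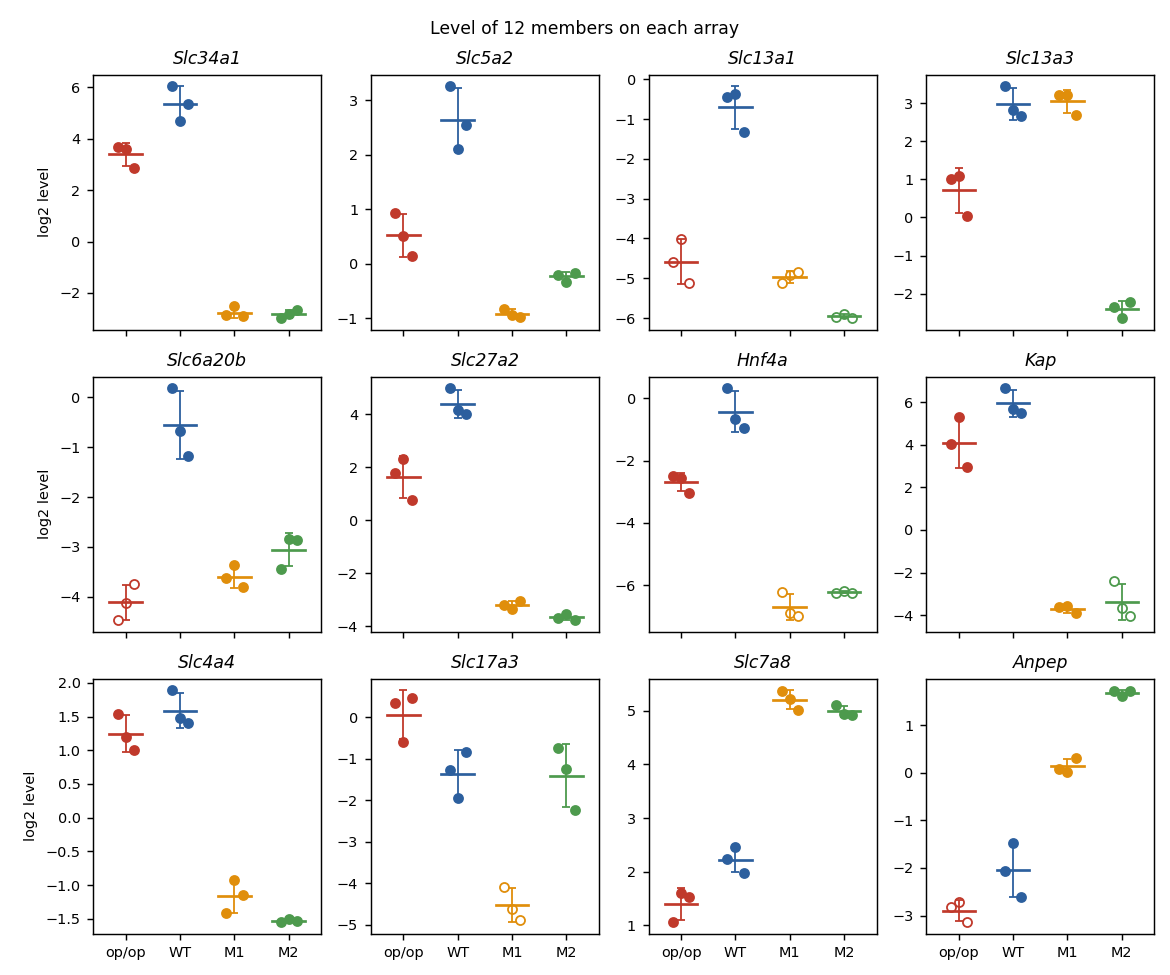
Log2 level of 12 members on each array (points; open where fewer than 3 arrays of the group were well above background), with the group mean (line) and SD (bar, n = 3), for op/op and WT renal cells and M1 and M2 marrow macrophages. Slc34a1, Slc5a2, Slc27a2, Hnf4a and Kap are highest in WT cells and intermediate in op/op cells, Slc13a3 is as high in M1 as in WT cells, and Slc7a8 and Anpep are highest in the macrophages.

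The carriers of organic ions and urate did not move as one: 3 of 6 were lower, 2 were not called and 1, Slc17a3, was higher only on the probe used. Slc22a6, the basolateral organic anion carrier OAT1, had 1.95, 2.28 and 1.11 in op/op, against 4.08, 3.22 and 2.47 in WT cells, and was 2.79-fold lower (-1.48 ± 0.37, limma adjusted p = 0.00669). Slc22a8, the related carrier OAT3, had -4.75, -5.59 and -5.07 in op/op, under background on all arrays, against -3.19, -3.73 and -3.40 in WT cells. It was called lower (limma adjusted p = 0.00263), but the op/op detection limit was too high to give a bound on the fold, and with normexp background correction the difference was 0.10. Slc22a12, the apical urate exchanger URAT1, was 2.51-fold lower (-1.33 ± 0.45, limma adjusted p = 0.0238), with -2.81 to -1.56 in op/op, against -1.11 to 0.08 in WT cells. Its call was lost without WT replicate 1 (-0.96) or op/op replicate 4 (-0.91). Slc17a1, an apical phosphate and urate carrier, had -1.80 to -0.95 in op/op, against -0.18 to 0.34 in WT cells. These did not overlap, yet the pooled fit did not call it (-1.33 ± 0.55, limma adjusted p = 0.0549), while the fit of the renal groups alone did (limma adjusted p = 0.0207). Slc22a2, the basolateral organic cation carrier OCT2, had 0.94, 0.65 and 0.39 in op/op, against -0.01, 0.07 and 0.75 in WT cells, which overlapped (0.39 ± 0.28, limma adjusted p = 0.236).

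Slc17a3, a urate and organic anion carrier, gave opposite results on its 2 probes. The brighter probe, at chr13:23952526-23952583 (mm9, plus strand), had 0.34, -0.61 and 0.45 in op/op, against -1.28, -1.96 and -0.85 in WT cells, and was higher in op/op (1.42 ± 0.42, limma adjusted p = 0.0135). That call was lost without WT replicate 2 (1.12, limma adjusted p = 0.0576) or op/op replicate 1 (1.28, limma adjusted p = 0.0532). The other probe, at chr13:23950158-23950217, averaged -0.91 in op/op, against 0.75 in WT cells, and was lower (-1.66 ± 0.43, limma adjusted p over all probes = 0.0082). The brighter probe was also measured on all M2 arrays, where it averaged -1.41, and the other on no marrow array. In WT cells alone it was the dimmer of the pair, at a mean of -1.36 against 0.75. The mean of both probes gave a difference of -0.12, so no direction can be given for the gene. The first 30 of the 60 bases of each probe are shown because the gene's direction turns on which of them is read.
Slc17a3 brighter probe: accagtggtctaggtctcccaacatacatc
Slc17a3 other probe: ccctttcacccagacttcttttgaagaaaa
Probes of other members also parted. Slc4a4, the basolateral bicarbonate carrier, gave -0.35 and -0.56 on a pair of probes and 2.47 on the last (limma adjusted p over all probes = 0.0194). Slc5a12 gave -1.26 on the probe used and 0.68 on the other, which was not called, and Slc9a3 gave 0.41 and -1.02, neither called. For Lrp2, Cubn, Mme, Pdzk1, Slc34a1 and Cyp2e1, every probe that was tested gave a negative difference.

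The acid-base carriers were, with Slc22a2, the members nearest to 0 between the genotypes. Slc4a4 had 1.54, 1.19 and 1.0 in op/op, against 1.89, 1.48 and 1.40 in WT cells on the probe used (-0.35 ± 0.20, limma adjusted p = 0.142). Slc9a3, the apical sodium-hydrogen exchanger NHE3, had 0.69, 0.31 and 0.16 in op/op, against -0.21, -0.25 and 0.41 in WT cells (0.41 ± 0.33, limma adjusted p = 0.297). Groups overlapped in both, and both were higher in renal than in marrow cells, by 6.79-fold for Slc4a4 and 2.28-fold for Slc9a3. The misses do not show that these carriers were alike in op/op and WT cells.

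The receptors of protein uptake and their scaffold all fell, and none lost its call when any array was left out. Lrp2, or megalin, had -2.59, -2.51 and -2.57 in op/op, against -0.03, -1.0 and -1.18 in WT cells, and was 3.53-fold lower (-1.82 ± 0.33, limma adjusted p = 0.00166). A second Lrp2 probe, at chr2:69262566-69262625 (mm9, minus strand), gave -2.48 ± 0.43, and the third was under background on all arrays. Cubn, or cubilin, which works with megalin, had -2.55, -3.19 and -4.34 in op/op, against -1.40, -1.90 and -2.38 in WT cells (-1.47 ± 0.39, limma adjusted p = 0.00883), and was measured on 2 op/op arrays. Pdzk1, the scaffold that binds the tails of apical carriers, had 0.19, 0.40 and -0.51 in op/op, against 1.87, 1.14 and 1.13 in WT cells (-1.35 ± 0.27, limma adjusted p = 0.00248). In each of the 3 genes the op/op arrays lay under all WT arrays. The second Pdzk1 probe gave -1.22 between the genotypes but only 0.21 between renal and marrow cells, which was not called.

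Brush border peptidases fell in 3 of 4 cases. Ggt1 had 1.26, 1.44 and 0.50 in op/op, against 4.30, 2.63 and 2.27 in WT cells, and was 3.99-fold lower (-2.0 ± 0.46, limma adjusted p = 0.00433). WT replicate 1 carried part of this size, since without it the difference was -1.38 (limma adjusted p = 0.00701). Dpep1, a dipeptidase of the brush border, had -1.23, -1.36 and -1.40 in op/op, against 0.17, -1.18 and -0.42 in WT cells (-0.85 ± 0.28, limma adjusted p = 0.0226), so that WT replicate 2 was hardly above the op/op arrays. Its call was lost without WT replicate 1 (-0.53) or op/op replicate 4 (-0.82, limma adjusted p = 0.0558), and in a fit of the renal groups alone (limma adjusted p = 0.0698). Anpep, with the values given above, was 1.80-fold lower (-0.84 ± 0.25, limma adjusted p = 0.0137), on 2 op/op arrays above background, and was not called with only the renal groups (limma adjusted p = 0.0611). Mme, or neprilysin, overlapped between the groups (-0.52 ± 0.36, limma adjusted p = 0.215).

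Of the 4 genes of sugar metabolism, 2 were lower in op/op cells. Miox, the inositol oxygenase found mainly in proximal tubule, had 2.41, 2.46 and 1.81 in op/op, against 3.31, 2.45 and 3.18 in WT cells (-0.75 ± 0.25, limma adjusted p = 0.0224), with WT replicate 2 inside the op/op range. Its call was lost without WT replicate 1 (-0.59), WT replicate 4 (-0.65, limma adjusted p = 0.0597) or op/op replicate 4 (-0.54). Fbp1, a fructose bisphosphatase of gluconeogenesis, had 0.29, 0.86 and 0.00 in op/op, against 1.54, 0.92 and 0.71 in WT cells (-0.67 ± 0.25, limma adjusted p = 0.0361). WT replicate 4 lay inside its op/op range, and its call was lost without WT replicate 1 (-0.43), WT replicate 2 (-0.74, limma adjusted p = 0.0518), op/op replicate 1 (-0.63) or op/op replicate 4 (-0.48). A fit of the renal groups alone called neither gene. G6pc, the glucose-6-phosphatase that releases glucose, had 1.17, 0.91 and 0.55 in op/op, against 1.48, 0.94 and 1.54 in WT cells (-0.44 ± 0.21, limma adjusted p = 0.0838). It was called without WT replicate 2 (-0.63, limma adjusted p = 0.0252) or op/op replicate 1 (-0.59, limma adjusted p = 0.048). Pck1, which makes phosphoenolpyruvate for gluconeogenesis, ranged from 0.18 to 1.26 in op/op, against 1.24 to 2.20 in WT cells (-0.74 ± 0.45, limma adjusted p = 0.165).

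Enzymes of fatty acids, foreign compounds and creatine synthesis were lower in 4 of 5 cases. Slc27a2, a fatty acid carrier and acyl-CoA synthetase, had 1.77, 2.32 and 0.76 in op/op, against 4.98, 4.17 and 4.0 in WT cells, and was 6.79-fold lower (-2.76 ± 0.35, limma adjusted p = 0.000467). Acsm2, a medium-chain acyl-CoA synthetase of kidney, had -0.85, -0.32 and -2.58 in op/op, against 2.03, 1.01 and 1.10 in WT cells, and was 6.19-fold lower (-2.63 ± 0.46, limma adjusted p = 0.00139), or -1.97 without op/op replicate 4. For both the op/op arrays lay well under all WT arrays. Gatm, the first enzyme of creatine synthesis, had -1.74, -1.31 and -1.31 in op/op, against 0.21, 0.65 and 0.17 in WT cells (-1.80 ± 0.19, limma adjusted p = 0.000284). Between renal and marrow cells Gatm was the member closest to 0 (-0.21 ± 0.13, limma adjusted p = 0.168), since M2 macrophages had 0.84, 0.62 and 0.80. Cyp4b1 had 1.41 to 2.39 in op/op, against 2.56 to 3.43 in WT cells (-0.84 ± 0.28, limma adjusted p = 0.0217), and lost its call without WT replicate 1 (-0.55), without op/op replicate 1 (-0.54) or with only the renal groups (limma adjusted p = 0.0789). Cyp2e1, another cytochrome P450, overlapped between groups (-0.52 ± 0.29, limma adjusted p = 0.136) and was called without WT replicate 4 (-0.84, limma adjusted p = 0.0158) or op/op replicate 2 (-0.78, limma adjusted p = 0.0427).

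Hnf4a and Kap were both lower in op/op cells. Hnf4a, the nuclear receptor that drives proximal tubule genes, had -2.48, -2.56 and -3.03 in op/op, against 0.33, -0.65 and -0.95 in WT cells (probe at chr2:163398548-163398607, mm9, plus strand). It was 4.81-fold lower (-2.27 ± 0.31, limma adjusted p = 0.000598), with every op/op array under every WT array and no signal above background on any marrow array. Kap had 4.01, 5.28 and 2.95 in op/op, against 6.65, 5.67 and 5.48 in WT cells (-1.85 ± 0.55, limma adjusted p = 0.0142), with op/op replicate 2 close to the WT arrays. The call for Kap was lost without WT replicate 1 (-1.49, limma adjusted p = 0.0585) or op/op replicate 4 (-1.29, limma adjusted p = 0.0551), and the difference was -2.45 without op/op replicate 2. The Y-linked genes Eif2s3y and Ddx3y, chosen after their values were seen because Kap is androgen-regulated, were lower in op/op too. The sex-linked genes looked up also included Kdm5d, Uty and Xist, whose values are not given here. Eif2s3y had -3.10, -2.35 and -2.27 in op/op, against -0.37, -0.72 and -0.75 in WT cells, and Ddx3y had -1.62, -1.25 and -1.35, against 0.45, -0.04 and -0.53. The part that the animals' sex had in these differences was not tested.

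Between M1 and M2 macrophages, Slc13a3 and Slc7a7 were higher in M1, and Gatm, Anpep and Slc17a3 were lower. These were 5 of 24 members tested (limma adjusted p under 0.05), a share near the 18.5% of all 26169 genes tested that were called, 8.92% higher and 9.61% lower. Slc13a3 had 3.23, 3.22 and 2.70 in M1, against -2.34, -2.64 and -2.23 in M2 cells, and was 43.7-fold higher (5.45 ± 0.30, limma adjusted p = 1.62e-07). Slc7a7 had 3.65, 3.28 and 3.34 in M1, against 1.93, 1.67 and 1.98 in M2 cells (1.56 ± 0.17, limma adjusted p = 5.1e-05). The M1 arrays of both lay above all M2 arrays. Gatm was 4.60-fold lower in M1 (-2.20 ± 0.19, limma adjusted p = 4.98e-06), with -1.56, -1.50 and -1.28, against 0.84, 0.62 and 0.80 in M2 cells. Anpep was 2.92-fold lower in M1 (-1.55 ± 0.25, limma adjusted p = 0.000832). The brighter Slc17a3 probe was 8.66-fold lower in M1 (-3.11 ± 0.42, limma adjusted p = 0.000211), with 2 M1 arrays above background, and was not called with a common floor (-1.0, limma adjusted p = 0.174). The 5 calls were the same with any marrow array left out, but the number of members called was 11 with only the marrow groups in the fit and 13 with array weights.

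Other lists of renal and blood cell genes, read on the same arrays, are set beside the members. Of 49 other proximal tubule genes tested, 26 were lower in op/op, 7 were higher and 16 were not called, with a median of -0.91. The shares of all genes tested were 27.8% lower and 32.5% higher, with a median of 0.19. Without WT replicate 4 these were 28 lower and 8 higher (median -1.02), and without WT replicate 1 they were 17 lower and 5 higher (median -0.55). They included Dab2, the adaptor of megalin (1.58, 1.81 and 1.70 in op/op, against 3.58, 3.71 and 2.76 in WT cells), but macrophages also express Dab2, and 7 of the 49 were lower in renal than in marrow cells. Pter, a phosphotriesterase-related gene of kidney, was 3.91-fold lower in op/op (-1.97 ± 0.29, limma adjusted p = 0.000729). Slco1a6, an organic anion carrier, was called lower (limma adjusted p = 0.000467) but was under background on all op/op arrays.

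Genes of other nephron segments and of vessels were also higher in renal cells than in marrow macrophages, in 15 of 15 genes of the loop, distal tubule and collecting duct and in 12 of 12 endothelial genes. Of all genes tested, 48.7% were higher in renal cells. Between the genotypes, 1 of the 15 distal genes was lower in op/op and 5 were higher, with a median of 0.26, and of the endothelial genes 1 was higher and 11 were not called, with a median of 0.29. Beside these, 27.8% of all genes tested were lower and 32.5% higher, with a median of 0.19. The distal share of 33.3% higher was thus near that of all genes. Without WT replicate 4 the distal median was 0.06, with 2 lower and 5 higher, and without WT replicate 1 it was 0.58, with 7 higher. The endothelial median was 0.51 without WT replicate 1, with 2 genes higher. Aqp2, the water channel of the collecting duct, had 1.42, 2.10 and 1.47 in op/op, against 0.69, 0.70 and 0.35 in WT cells, while Umod, made by the thick ascending limb, was the distal gene called lower (-1.42 ± 0.49, limma adjusted p = 0.028). The Umod groups overlapped, and its call was lost without WT replicate 1 (-1.11, limma adjusted p = 0.104) and in a fit of the renal groups alone (limma adjusted p = 0.0598). Kdr, a VEGF receptor of endothelium, was 1.67-fold higher in op/op (0.74 ± 0.15, limma adjusted p = 0.00232). Of 7 podocyte genes 3 were lower and 1 was higher, and of 9 fibroblast and mural genes 4 were lower and 5 were not called.

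Macrophage genes fell with the tubule genes in op/op cells, 14 of 17 tested lower and 3 not called, with a median of -1.58. For this and the blood cell lists below, 27.8% of all genes tested were lower and 32.5% higher, with a median of 0.19. The myeloid integrin Itgam, which encodes CD11b and was used for the sort, had 8.24, 8.10 and 7.82 in op/op, against 8.20, 7.43 and 7.51 in WT cells, and was not called (limma adjusted p = 0.171). Itgax, which encodes CD11c, the other protein of the sort, had 0.09, 0.16 and 0.27 in op/op, against 1.58, 2.18 and 1.52 in WT cells, and was lower (-1.58 ± 0.18, limma adjusted p = 0.00039). Cx3cr1, the fractalkine receptor of resident macrophages, had 2.09, 1.95 and 2.11 in op/op, against 4.37, 5.23 and 4.28 in WT cells. Of 8 lymphocyte genes tested 6 were higher in op/op and 1 was lower, and of 8 neutrophil genes 4 were higher and 4 were not called (median 0.53), or 6 were higher without WT replicate 1 (median 0.84). The summed linear level of all 17 macrophage genes ranged from 319 to 395 in op/op, against 348 to 525 in WT cells, and that of the 41 members from 49.6 to 104, against 171 to 326. Itgam alone made up most of the macrophage sum on each op/op array, so this sum does not show how the list moved. The part that the makeup of the sort had in the members' difference was not tested.

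The WT arrays differed among themselves in both tubule and macrophage genes. The median level of the 41 members was -0.78, -0.61 and -1.08 in op/op, against 0.33, -0.01 and 0.41 in WT cells, -3.62, -3.51 and -3.59 in M1 and -3.44, -3.52 and -3.65 in M2 cells. The median of the macrophage genes was 0.39, 0.84 and 0.86 in op/op, against 3.13, 4.17 and 1.52 in WT cells. WT replicate 4, the WT array that correlated most with op/op over genes measured on all arrays, was the lowest WT array by the macrophage median. Its place by tubule genes turned on the summary: the members' median put it highest, their summed linear level was 326, 171 and 175 on WT replicates 1, 2 and 4, and the median of the 52 other proximal tubule genes was -0.01, -0.83 and -0.88.

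**Figure D5:**
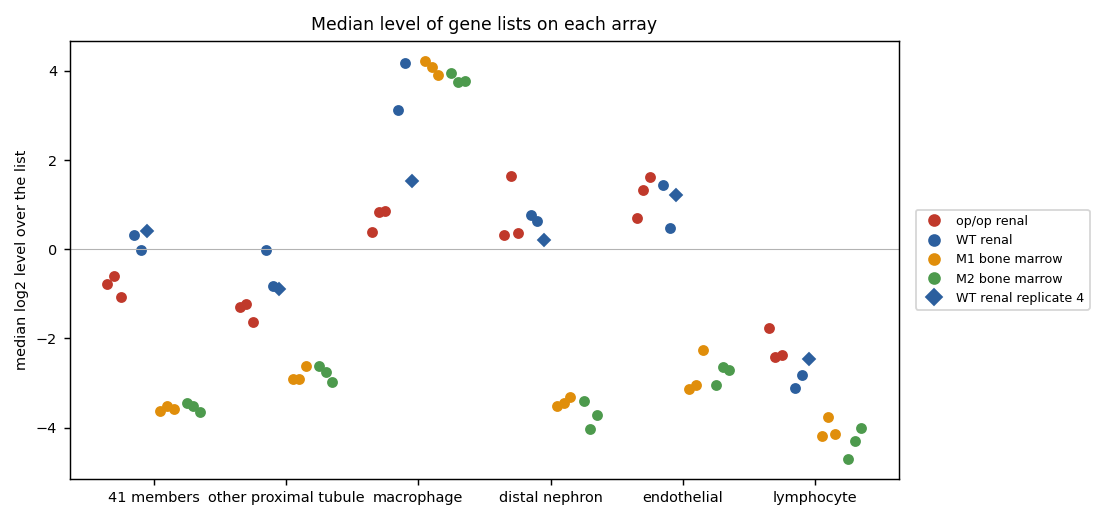
Median log2 level over each gene list (x axis) on each of the 12 arrays (points, coloured by group; the diamond is WT replicate 4). For the 41 members the op/op arrays lie at -1.08 to -0.61, under the WT arrays at -0.01 to 0.41, and the marrow arrays lie at or under -3.44.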

How the data were processed

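The data come from 12 Agilent arrays with 1 dye, of 4 groups with 3 samples each. Per the labels' protocols, RNA was prepared with the RNeasy Micro kit, amplified with Ovation PicoSL WTA V2 and labelled with Cy3. The authors' deposited scanner files hold spot intensity values that Agilent Feature Extraction 10.7.3.1 made from the scans with background subtracted, per the file headers. The deposited value table holds log2 values of the same arrays that differ from the scanner values by 1 constant per array (r = 1), with column medians of -2.46 to -1.87. The sources used here do not say how its constants were set.

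Log2 signals were averaged over the spots of a probe and scaled to the 75th percentile of their array. Control spots and outlier spots were left out, as were 30 probes with no spot left on an array, and the brightest probe stood for each of 34751 genes. Names came from accessions (27488 probes), symbols (3549) or synonyms (403) of RefSeq, or from the file (24211). A gene entered a comparison if 1 of its groups had it well above background on each array. The model (R 4.3.3, limma 3.58.1) held a mean for each of the 4 groups over the 12 arrays, with Benjamini-Hochberg adjusted p-values over all genes tested, called under 0.05. Where a probe was under background on every array of a group, a fold is a lower bound, taken from the higher of the array's lowest signal well above background and the probe's own. Of these steps, only the limma fit was run on simulated data with known changes. These had the same spread in every group and no genes under background, unlike the arrays here. Tables were made with pandas 2.3.3 and numpy 2.4.6 under Python 3.11.15, figures with matplotlib 3.10.9, and the random block with statmod 1.5.0. The number of arrays limits the precision.

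Members and lists were chosen with earlier results of these data known. Any member may be named. Values on every array are given for up to 3 members of a role with the smallest p between the genotypes, for those higher in marrow or in op/op, and for the 3 nearest to 0, and 3 genes of each other list were taken by p. Other settings tried for signals were quantile normalization, normexp (offset 50) and the deposited values. Those for genes were no filter, averaging a gene's probes and testing each probe. Those for the model were a fit of the compared groups alone, array weights, eBayes with robust and trend, replicate number as a block, slide as a term or random block, and leaving out each array. Centring on genes measured on all arrays and a common floor were added after seeing the data.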

Additional observations from a re-analysis of the deposited data

How the results depend on the processing

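Between op/op and WT renal cells, leaving out each array in turn gave 19 to 29 members lower, a median of -1.54 to -1.07 and 11992 to 17597 genes called, against 28, -1.33 and 16293 with all arrays. The median was -0.84 with normexp background correction, -1.57 with quantile normalization, -1.07 with slide as a term and -1.01 with the common floor, and a fit of the renal groups alone called 10356 genes. Array weights left 20 members lower. Slc22a8 turned to 0.10 with normexp and Slc17a3 to -0.12 with the mean of its probes. Between renal and marrow cells, leaving out each array gave 34 members higher throughout, a median of 2.69 to 2.82 and 22542 to 23924 genes. The median was 1.68 with normexp, 2.17 with quantile normalization and 1.34 with the common floor, where the difference of Slc22a8 was 0.00. With that floor 30 members were higher, and Slc34a3, Slc2a2, Slc22a8 and Cubn were not called. Between M1 and M2 cells, leaving out each array gave 5 or 6 members called, a median of -0.09 to 0.07 and 3404 to 3611 genes, against 5, 0.02 and 4850 with all arrays. There, 7335 probes were called with every probe on its own, 9719 genes and 11 members with only the marrow groups, and 10958 genes and 13 members with array weights. With the common floor 4 members were called, without Slc17a3. For results whose value moved, the cause was not tested. Same-numbered samples did not all deviate together (r of -0.27, 0.09 and -0.14 between op/op and WT, -0.09, 0.25 and 0.19 between M1 and M2). Such few values cannot settle whether they were paired, and the labels do not say. Same-numbered arrays did lie in the same column of their slides. With the replicate number as a block, 28 members were still called lower between op/op and WT, of 14772 genes called, 34 were higher in renal cells, of 22848, and 5 were called between M1 and M2, of 3879. The fit of only the groups compared is the fit of all arrays for renal against marrow cells. Low signals limit the folds: op/op arrays had detection limits of -3.48 to -3.12, against -4.63 to -4.07 on WT arrays.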

Other observations

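By segment, op/op renal cells had lower signal than WT cells for 3 of the 4 early proximal tubule members that could be tested (Slc5a2, Slc5a12 and Slc2a2, with Slc4a4 not called), with a median of -1.28. This count was 2 without WT replicate 4 and 1 without WT replicate 1. Of the late members, Slc5a8 was higher (a call lost without either of those arrays), Slc3a1 was not called and Slc5a1 was not tested. The difference between early and late members was not tested.

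Blood cell genes moved both ways between the genotypes. Cd3e, a chain of the T cell receptor complex, had 3.07, 2.71 and 2.62 in op/op, against 1.0, 1.44 and 1.66 in WT cells (limma adjusted p = 0.000612). Ms4a1, the B cell protein CD20, had -0.30, -0.74 and -0.66 in op/op, against -2.98, -2.28 and -1.81 in WT cells (limma adjusted p = 0.00134). Prf1, the perforin of cytotoxic cells, was 1.79-fold higher in op/op (limma adjusted p = 0.00221). Ngp, Mpo and Elane, granule genes of neutrophils and their precursors, were 3.41-fold, 3.12-fold and 2.47-fold higher in op/op. Aif1, a calcium-binding protein of macrophages, had 3.09, 2.94 and 3.16 in op/op, against 4.35, 4.90 and 4.41 in WT cells (limma adjusted p = 0.000395). The op/op arrays lay apart from all WT arrays in each of these 7 genes, which were picked by p. They lay under the WT arrays in 25.4% of all genes tested and above them in 33.5%.

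Genes of other kidney cells were mixed. Foxi1, a transcription factor of intercalated cells, was 1.90-fold higher in op/op, and Aqp3, a basolateral water channel of the collecting duct, was 2.41-fold higher. Plvap and Eng, endothelial genes, gave 0.39 and 0.68 and were not called (limma adjusted p = 0.0852 and 0.103). Among podocyte genes, Ptpro was 2.20-fold lower and Synpo was 1.56-fold higher, a call that a fit of the renal groups alone did not make (limma adjusted p = 0.0786). Acta2, Col3a1 and Col1a1, genes of fibroblasts and mural cells, were lower in op/op (-1.63, -0.85 and -0.99 on the log2 scale), and all 3 were lower in renal cells than in marrow macrophages.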
